A study of Mus musculus with 16 samples.

Results

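Expression of 9 scavenger receptor genes, *Msr1*, *Marco*, *Colec12*, *Cd36*, *Scarb1*, *Olr1*, *Stab1*, *Cd163*, and *Cd5l*, was followed in bone marrow-derived macrophages (BMDM) of WT (Camkk2 +/+) and *Camkk2*-/- mice. The genes were chosen by symbol as a known functional group, with earlier results of these data known. Each of them had exactly 1 probe set, and they make up 9 of the 19505 genes measured. RNA was hybridized to 16 mouse Affymetrix arrays, with 4 arrays for each combination of genotype and medium, named here WT RM-BMDM, WT TCM-BMDM, *Camkk2*-/- RM-BMDM, and *Camkk2*-/- TCM-BMDM. All groups were differentiated for 5 days with 30% L929-conditioned medium, which supplies the growth factor CSF1 to macrophages, in regular medium (RM) or with added tumor-conditioned medium (TCM, called CM in the labels) of E0771 cells, a mouse mammary tumor line. The share of TCM was 20% per the labels and 25% per the methods. The 4 biological replicates of each genotype came from long bones of 16 female mice aged 10 to 12 weeks. How marrow was combined into replicates, and whether the same marrow was used in both media, are points not given in the sources used here. *Camkk2*-/- mice lack the kinase in all cells, including the precursors from which these macrophages were grown.

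Scavenger receptors are structurally diverse proteins, mostly of the cell surface, many of which bind modified lipoproteins, dying cells, or microbial surfaces. Macrophages use them to clear such cargo, and uptake through them is not shut off by cellular cholesterol, so that lipid can accumulate. They are grouped into classes by structure. MSR1, MARCO, and COLEC12 belong to class A, with a collagen-like stalk. CD36 and SCARB1 belong to class B, OLR1 to class E, and STAB1 to class H. CD163 and the secreted protein CD5L are built of scavenger receptor cysteine-rich domains.

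Signals are on the log2 scale as deposited, so that a difference of 1 is a 2-fold change, and the signal of different probe sets cannot be ranked against each other. Arrays were comparable in level, with medians over genes of 5.774 to 5.909. WT TCM replicates 1 and 3 stood farther from their group mean (SD over genes of 0.325 and 0.355) than the other 14 arrays (0.220 to 0.301). *Camkk2* itself ran from 9.11 to 9.83 in WT arrays and from 6.07 to 8.15 in *Camkk2*-/- arrays, and the exons that its probes cover are not stated. Of the 8 macrophage markers listed, 6 were measured, and their mean signal was 15.41 to 16.19 per array over all groups. Probe sets for sequences absent from the mouse genome had a median of 5.37, taken here as background, and a highest mean of 6.82. In RNA from whole cultures, fewer cells of a type and less RNA per cell cannot be told apart.

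Across the 4 groups, *Cd5l* and *Msr1* were higher in TCM than in RM in both genotypes, whereas *Cd36*, *Stab1*, and *Colec12* were lower in TCM in *Camkk2*-/- BMDM. In WT cells, *Cd5l* rose 2.90-fold and *Msr1* 1.71-fold with TCM (limma, adjusted p under 0.05 over all genes, n = 4 per group). With TCM in *Camkk2*-/- cells, *Stab1* fell 3.72-fold, *Colec12* 2.93-fold, and *Cd36* 2.26-fold, and *Msr1* and *Cd5l* rose 1.64-fold and 1.48-fold. *Stab1*, *Colec12*, and *Cd36* also had lower means in TCM in WT cells (log2 fold changes −0.50, −0.64, and −0.35), which did not pass the test. Between the genotypes, *Cd5l* was 1.96-fold higher in *Camkk2*-/- RM-BMDM, and no member passed the test in TCM. The difference of the genotype effects between TCM and RM passed it for no member. *Marco*, *Scarb1*, *Olr1*, and *Cd163* passed it in none of the comparisons. The plot of signal per array shows all values.

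**Figure D1:**
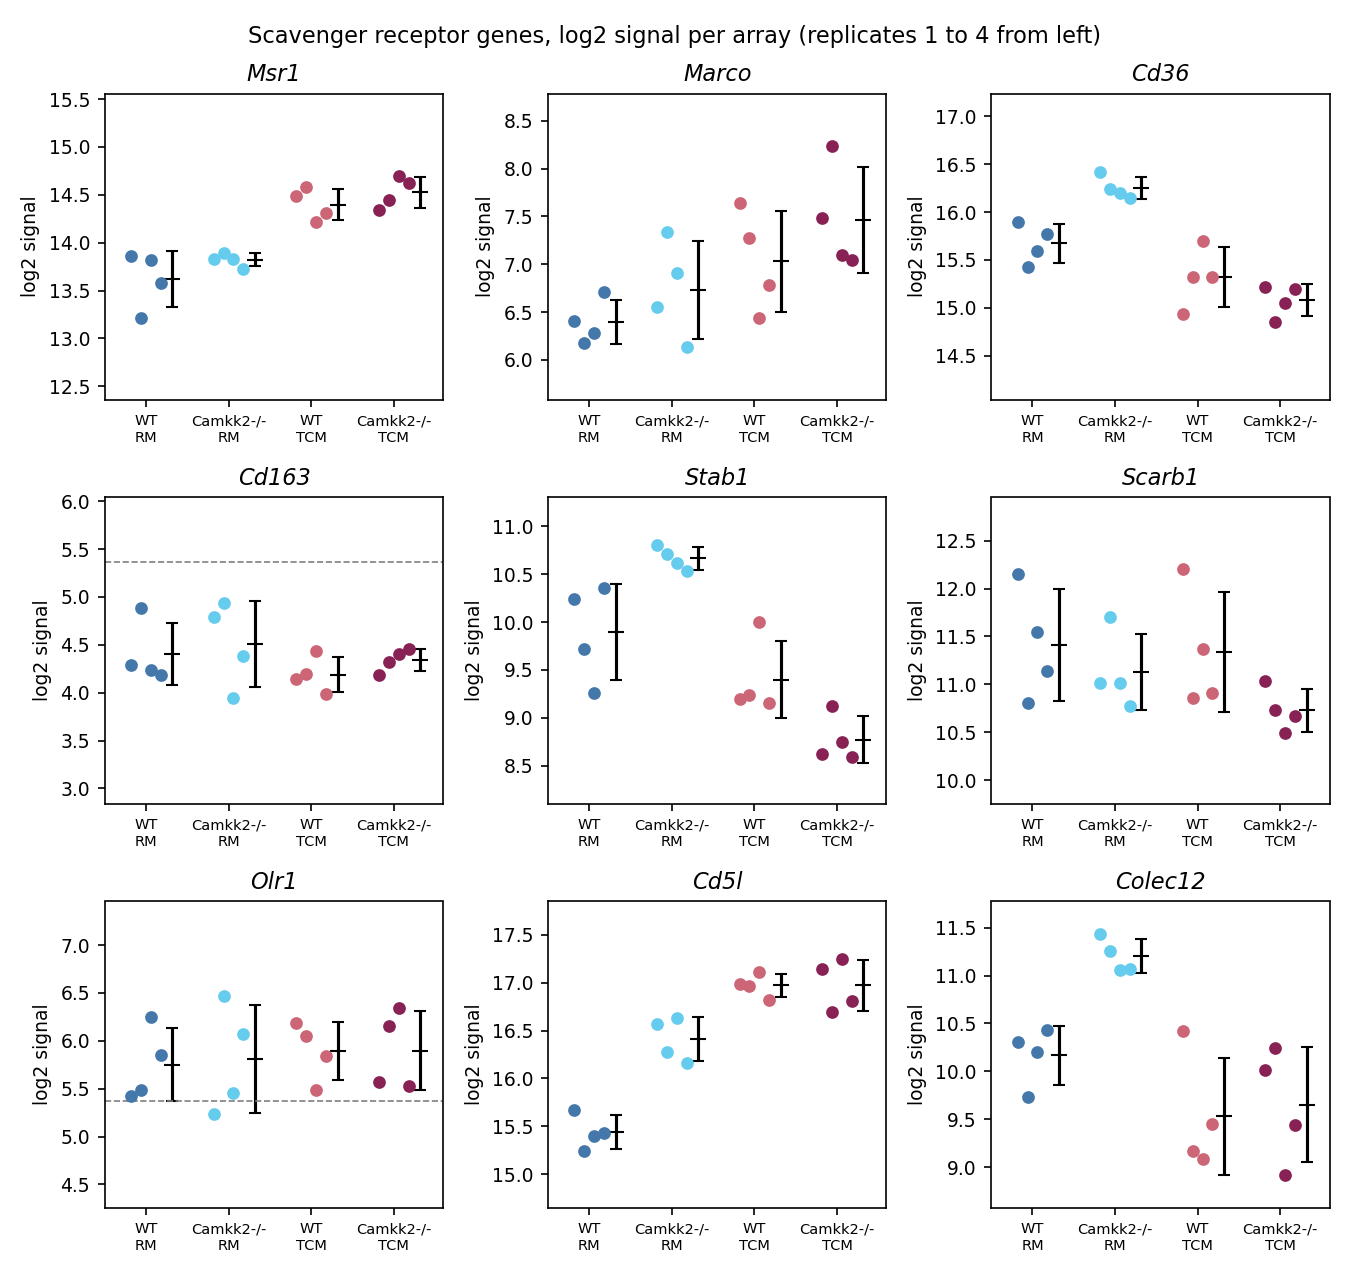
Log2 signal of the 9 scavenger receptor genes (vertical axis, a separate range for each gene) in the 4 groups (horizontal axis). Each point is 1 array, the bar beside it is the mean ± SD (n = 4), and the dashed line in the *Cd163* and *Olr1* panels is the background median of 5.37. *Cd5l* arrays in TCM lie above all arrays in RM, and *Cd36*, *Stab1*, and *Colec12* are highest in *Camkk2*-/- RM-BMDM.

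Sequence upstream of the start site is shown for *Cd5l*, the member that rose most with TCM in WT cells. It is also shown for *Cd36* and *Stab1*, among the 3 members that fell with TCM in *Camkk2*-/- cells, to place them in the genome beside their values. The sequences are those of RefSeq for build GRCm38.p6, whose promoter table held 6 of the 9 members (250 bases before to 50 after the start). It had no entry for *Msr1*, *Scarb1*, or *Colec12*, the last of which also fell with TCM in *Camkk2*-/- cells. The 250 bases before the start are printed 5′ to 3′ on the gene's strand. Capitals mark the match to a nuclear receptor motif AGGTCA.
Cd5l, chr3:87357631-87357880, plus strand: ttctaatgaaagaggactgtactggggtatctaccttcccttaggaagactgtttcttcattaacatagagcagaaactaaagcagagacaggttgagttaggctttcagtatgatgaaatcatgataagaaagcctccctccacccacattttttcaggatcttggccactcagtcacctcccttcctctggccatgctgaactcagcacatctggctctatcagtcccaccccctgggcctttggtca
Cd36, chr5:17835897-17836146, minus strand: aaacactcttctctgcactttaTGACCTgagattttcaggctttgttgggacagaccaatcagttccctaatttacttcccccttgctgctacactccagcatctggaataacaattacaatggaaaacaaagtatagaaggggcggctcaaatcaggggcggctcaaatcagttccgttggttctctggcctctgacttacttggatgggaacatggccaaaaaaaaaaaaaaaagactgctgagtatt
Stab1, chr14:31168642-31168891, minus strand: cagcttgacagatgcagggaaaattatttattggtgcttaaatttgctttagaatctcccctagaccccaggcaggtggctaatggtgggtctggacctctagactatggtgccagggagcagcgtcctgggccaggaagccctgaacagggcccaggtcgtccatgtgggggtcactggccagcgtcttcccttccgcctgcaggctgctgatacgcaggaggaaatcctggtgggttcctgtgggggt

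All 300 bases of each promoter were searched on both strands for 5 motifs. They included the PU.1 site GAGGAAGT, the AP-1 site TGANTCA, and the core of the interferon-stimulated response element. The nuclear receptor motif AGGTCA and the TATA box TATAAA were the others. Of these, the *Cd36* promoter held AGGTCA, read on the opposite strand, starting 228 bases before the start site. The *Olr1* promoter held it as well, and also an AP-1 site. AGGTCA is present in 16.3% and the AP-1 site in 7.81% of 32851 promoters of the same length. A match is a run of letters and not a bound site.

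*Cd5l* encodes a protein that macrophages secrete, which binds lipids and is taken up by cells that carry CD36. Its signals were 15.67, 15.25, 15.40, and 15.43 in WT RM-BMDM (15.44 ± 0.18, mean ± SD, n = 4) and 16.57, 16.28, 16.63, and 16.16 in *Camkk2*-/- RM-BMDM (16.41 ± 0.23). In WT TCM-BMDM they were 16.99, 16.97, 17.12, and 16.82 (16.97 ± 0.12), and in *Camkk2*-/- TCM-BMDM 17.15, 16.69, 17.25, and 16.81 (16.98 ± 0.27). All arrays in TCM thus lay above all arrays in RM, the RM arrays of the 2 genotypes did not overlap, and the TCM arrays of the 2 genotypes did. TCM raised the signal by 1.54 in WT (95% interval 1.19 to 1.88, adjusted p = 1.99e-05) and by 0.57 in *Camkk2*-/- cells (0.22 to 0.91, adjusted p = 0.0304). The latter call was lost without *Camkk2*-/- RM replicate 2 or 4 or *Camkk2*-/- TCM replicate 1 or 3, each left out in turn, with log2 fold changes of 0.47 to 0.66 over all arrays left out.

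In RM, *Cd5l* was higher by 0.97 in *Camkk2*-/- than in WT cells (0.63 to 1.32, adjusted p = 0.00358), and this call held without each array in turn. In TCM the difference was 0.00 (−0.35 to 0.35, adjusted p = 0.998). The difference between these genotype effects was −0.97 (−1.46 to −0.48), with an adjusted p of 0.136, so that it did not pass the test over all genes. In order of level, WT RM-BMDM were lowest and *Camkk2*-/- RM-BMDM next, and the TCM groups of both genotypes were highest and did not differ beyond their spread.

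*Msr1* encodes the founding class A receptor, which takes up acetylated and oxidized low-density lipoprotein. Signals were 13.86, 13.22, 13.82, and 13.58 in WT RM-BMDM (13.62 ± 0.30) and 14.48, 14.58, 14.22, and 14.31 in WT TCM-BMDM (14.40 ± 0.16). The values were 13.83, 13.89, 13.83, and 13.73 in *Camkk2*-/- RM-BMDM (13.82 ± 0.07) and 14.35, 14.45, 14.70, and 14.62 in *Camkk2*-/- TCM-BMDM (14.53 ± 0.16). No TCM array reached down to the RM arrays of either genotype. The log2 fold change with TCM was 0.78 in WT (0.44 to 1.11, adjusted p = 0.00855) and 0.71 in *Camkk2*-/- cells (0.37 to 1.04, adjusted p = 0.005). In a fit to the 8 WT arrays alone, the adjusted p was 0.0604. The genotypes differed by 0.20 in RM (−0.14 to 0.54) and by 0.13 in TCM (−0.20 to 0.47), and the difference of these was −0.07 (adjusted p = 0.975).

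The class A receptor MARCO binds bacteria and inhaled particles. *Marco* gave a weak signal, above the background median on all 16 arrays and above the highest background mean of 6.82 on 8 of them. It ran from 6.18 to 6.71 in WT RM-BMDM, from 6.13 to 7.34 in *Camkk2*-/- RM-BMDM, from 6.44 to 7.64 in WT TCM-BMDM, and from 7.04 to 8.24 in *Camkk2*-/- TCM-BMDM. The groups overlapped within each genotype. Log2 fold changes with TCM were 0.64 in WT (0.03 to 1.24, adjusted p = 0.318) and 0.73 in *Camkk2*-/- cells (0.13 to 1.34, adjusted p = 0.117). The latter reached an adjusted p of 0.0388 with arrays weighted by their quality.

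*Colec12* encodes a class A receptor that also carries a C-type lectin domain. Its signals were 10.30, 9.73, 10.20, and 10.44 in WT RM-BMDM (10.17 ± 0.31) and 11.43, 11.26, 11.06, and 11.07 in *Camkk2*-/- RM-BMDM (11.21 ± 0.18). In TCM they were 10.42, 9.17, 9.08, and 9.45 in WT (9.53 ± 0.61) and 10.01, 10.25, 8.92, and 9.44 in *Camkk2*-/- cells (9.65 ± 0.60). The *Camkk2*-/- RM arrays were above all others, and the TCM groups were spread over more than 1 unit each. TCM lowered the signal in *Camkk2*-/- cells by 1.55 (interval of the log2 fold change −2.14 to −0.96, adjusted p = 0.000714). In WT cells the log2 fold change was −0.64 (−1.23 to −0.05, adjusted p = 0.303), and −0.94 (adjusted p = 0.0564) without WT TCM replicate 1, which had the highest signal of its group.

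In RM, *Colec12* was 1.04 higher in *Camkk2*-/- than in WT arrays (0.45 to 1.63), with no overlap and an adjusted p of 0.122. This p was 0.0435 without WT TCM replicate 1, an array that is not in the comparison but enters the estimate of spread, and 0.0195 in a fit to the 8 RM arrays. In TCM the genotypes differed by 0.12 (−0.47 to 0.72), and the difference of the genotype effects was −0.91 (adjusted p = 0.54).

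CD36, of class B, binds oxidized lipoprotein, long-chain fatty acids, and thrombospondin. *Cd36* signals were 15.89, 15.43, 15.59, and 15.77 in WT RM-BMDM (15.67 ± 0.20) and 16.42, 16.24, 16.20, and 16.15 in *Camkk2*-/- RM-BMDM (16.25 ± 0.12). In TCM they were 14.94, 15.32, 15.70, and 15.32 in WT (15.32 ± 0.31) and 15.22, 14.86, 15.05, and 15.20 in *Camkk2*-/- cells (15.08 ± 0.17). Every TCM array was below every RM array in *Camkk2*-/- cells, while the WT groups overlapped. The log2 fold change with TCM was −1.17 in *Camkk2*-/- (−1.53 to −0.82, adjusted p = 5.3e-05) and −0.35 in WT cells (−0.70 to 0.00, adjusted p = 0.353).

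*Camkk2*-/- RM arrays also lay above all WT RM arrays for *Cd36*, by 0.58 (0.23 to 0.93), which did not pass the test over all genes (adjusted p = 0.164). In TCM the difference was −0.24 (−0.59 to 0.11). The genotype effect was 0.82 lower in TCM than in RM, with an interval of the difference from −1.32 to −0.32 and an adjusted p of 0.252.

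SCARB1, the other class B receptor, takes cholesteryl esters from high-density lipoprotein and lies on chromosome 5, as *Cd36* and *Camkk2* do. In build GRCm38.p6, 51 protein-coding genes lie between *Scarb1* and *Camkk2*, and 799 between *Cd36* and *Camkk2*. *Scarb1* signals were 12.15, 10.80, 11.55, and 11.14 in WT RM-BMDM (11.41 ± 0.58) and 12.21, 10.86, 11.37, and 10.91 in WT TCM-BMDM (11.34 ± 0.62). Signals in *Camkk2*-/- cells were 11.01, 11.70, 11.01, and 10.78 in RM (11.13 ± 0.40) and 11.03, 10.73, 10.50, and 10.67 in TCM (10.73 ± 0.22). All groups overlapped, and replicate 1 was the highest in both WT groups. Log2 fold changes with TCM were −0.07 in WT (−0.69 to 0.54) and −0.40 in *Camkk2*-/- cells (−1.01 to 0.22). Between genotypes they were −0.29 in RM (−0.90 to 0.33) and −0.61 in TCM (−1.22 to 0.00, adjusted p = 0.331). Without WT TCM replicate 1 the latter was −0.32.

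*Stab1* encodes stabilin-1, a class H receptor of macrophages and sinusoidal endothelium that takes up acetylated lipoprotein and the matrix protein SPARC. Its signals were 10.24, 9.72, 9.26, and 10.36 in WT RM-BMDM (9.90 ± 0.50) and 10.81, 10.71, 10.62, and 10.53 in *Camkk2*-/- RM-BMDM (10.67 ± 0.12). In TCM they were 9.19, 9.24, 10.00, and 9.15 in WT (9.40 ± 0.40) and 8.62, 9.13, 8.74, and 8.59 in *Camkk2*-/- cells (8.77 ± 0.25). *Camkk2*-/- arrays were therefore the highest in RM and the lowest in TCM, without overlap with WT in either medium. TCM lowered *Stab1* in *Camkk2*-/- cells by 1.90 (interval of the log2 fold change −2.37 to −1.42, adjusted p = 7.52e-06). In WT cells the groups overlapped, with a log2 fold change of −0.50 (−0.98 to −0.02, adjusted p = 0.324).

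The genotype difference in *Stab1* was 0.77 in RM (0.30 to 1.25, adjusted p = 0.177) and −0.63 in TCM (−1.10 to −0.15, adjusted p = 0.154). Neither passed the test over all genes, nor did their difference of −1.40 (−2.07 to −0.72, adjusted p = 0.117). Without WT TCM replicate 3, which stood above the other arrays of its group, the difference in TCM was −0.42 (adjusted p = 0.431) and the difference of genotype effects −1.20 (adjusted p = 0.204).

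CD163 clears hemoglobin bound to haptoglobin and is a usual marker of resident and alternatively activated macrophages. *Cd163* was below the background median on all 16 arrays, with group means of 4.40 ± 0.32, 4.51 ± 0.45, 4.19 ± 0.19, and 4.34 ± 0.12 in WT RM, *Camkk2*-/- RM, WT TCM, and *Camkk2*-/- TCM. OLR1 binds oxidized lipoprotein and is best known from endothelium. *Olr1* means were 5.75 ± 0.38, 5.81 ± 0.57, 5.89 ± 0.30, and 5.90 ± 0.41 in the same order, above the background median on 15 arrays but on none above the highest background mean. No difference of either gene passed the test, with adjusted p-values of 0.682 or more, at signals below or near background.

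**Figure D2:**
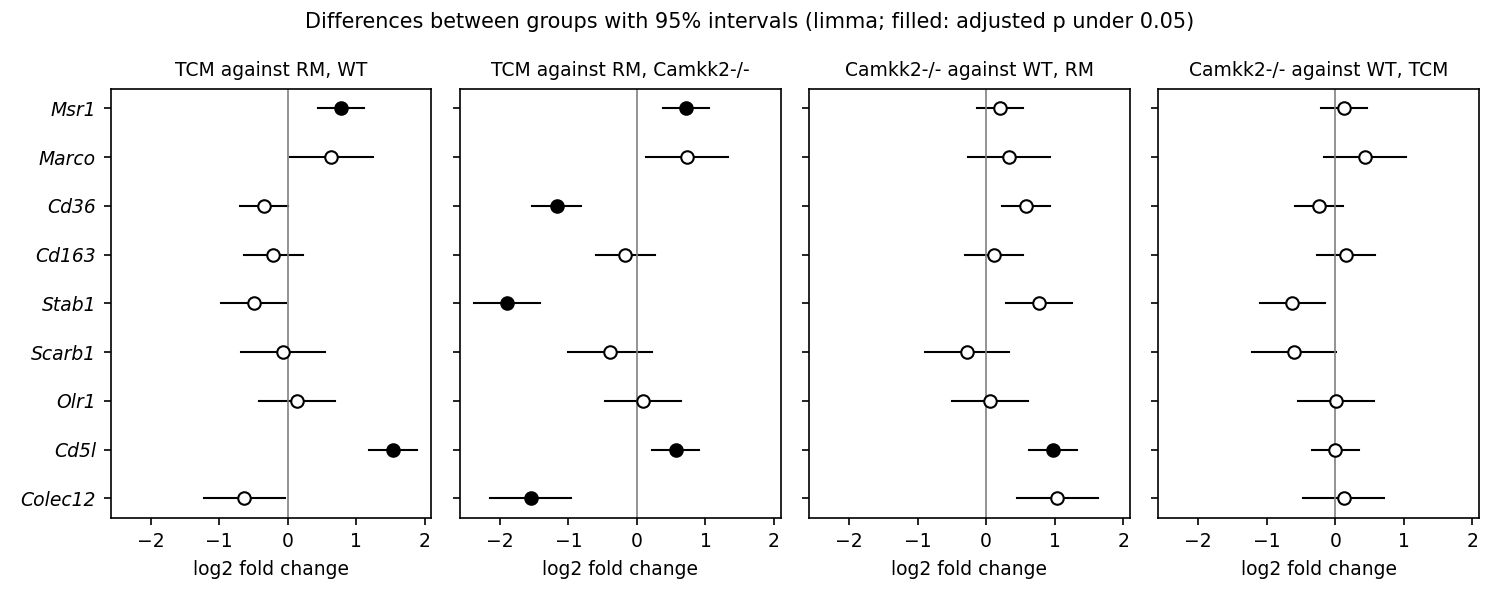
Log2 fold change of each scavenger receptor gene (horizontal axis) in 4 comparisons (panels), with 95% intervals from limma over 16 arrays. Filled points passed an adjusted p of 0.05, which 2, 5, 1, and 0 genes did from left to right, and the intervals of *Stab1*, *Colec12*, *Cd36*, and *Cd5l* exclude 0 in RM.

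The number of members called was set against the share of all genes called. With TCM in WT cells, 2 of 9 members were higher, against 2.21% of all genes, and 0 lower, against 0.697%, with 2.91% of all genes called in either direction. At an unadjusted p under 0.05 there were 5 members (14.2% of all genes), with *Marco* among the higher and *Stab1* and *Colec12* among the lower. Of the members, 2 were higher (6.13% of all genes) and 3 lower (5.37%) with TCM in *Camkk2*-/- cells, a total of 5 against 11.5%, and 6 had an unadjusted p under 0.05 (24%). Groups of arrays did not overlap for 2 members in WT (7.08% of genes) and for 5 in *Camkk2*-/- cells (18.7%). The median log2 fold change of the members was −0.07 in WT and −0.17 in *Camkk2*-/- cells, beside 0.04 and 0.01 over all genes.

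Between genotypes in RM, 1 member was higher (0.446% of all genes) and 0 lower (0.292%, and 0.738% in either direction), and 4 had an unadjusted p under 0.05 (8.21%), namely *Cd5l*, *Colec12*, *Stab1*, and *Cd36*. These 4 also had groups without overlap (4.34% of genes), each with *Camkk2*-/- arrays above WT, and the median over all members was 0.34 beside 0.02 over all genes. In TCM, 0 members were called by limma (4.49% of all genes, 2.7% higher and 1.79% lower), 1 had an unadjusted p under 0.05 (15.3%), and for the same member, *Stab1*, the groups did not overlap (10.8%). For the difference of the genotype effects, 0 were called (0.144% of genes, 0.0513% with a higher and 0.0923% with a lower effect in TCM) and 4 had an unadjusted p under 0.05 (8.17%). When the variance was allowed to follow signal, *Cd5l* had an adjusted p of 0.0498 for this difference. Comparisons that involve *Camkk2*-/- RM-BMDM share those arrays, so that a high value there enters both the fall with TCM and the difference from WT.

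**Figure D3:**
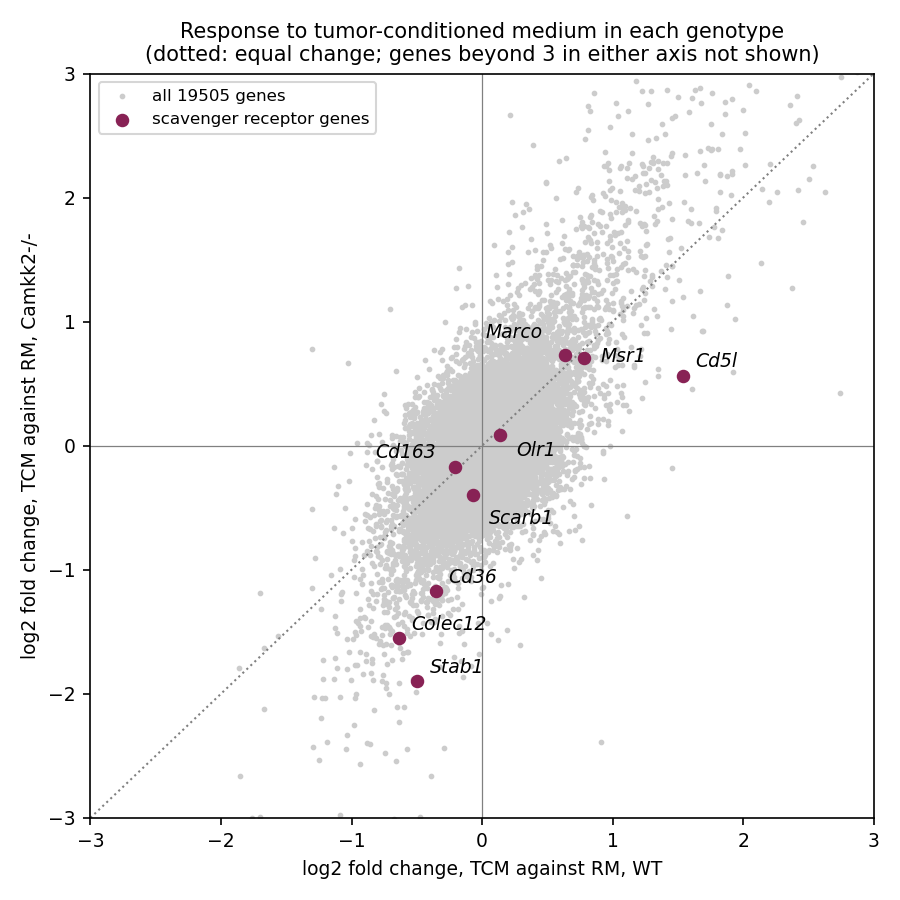
Log2 fold change of TCM against RM in WT (horizontal axis) and in *Camkk2*-/- BMDM (vertical axis) for all genes (gray) and the 9 scavenger receptor genes (named), with values beyond 3 not shown. *Msr1*, *Marco*, and *Olr1* lie near the dotted line of equal change, *Cd5l* at 1.54 and 0.57 lies to its right, and *Cd36*, *Stab1*, and *Colec12* lie below it.

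As a description over the 16 arrays, *Cd36* and *Stab1* followed each other (Pearson's r = 0.91, and 0.49 for deviations from the group means), as did *Msr1* and *Cd5l* (0.85, and 0.33 within groups). *Colec12* correlated with *Stab1* (0.73) and *Cd36* (0.70) over all arrays, and with neither within groups (0.07 and −0.32). Within groups it went with *Marco* (0.68) and *Scarb1* (0.60). All points share the 4 groups and the arrays themselves. Among 10684 genes with a mean above the background median, the patterns most like *Cd36* were those of *Rasa1* (r = 0.95), *Phactr2* (0.94), and *Rrp1* (0.93), and those most like *Stab1* were *Prdx1* (0.92), *Cnnm2* (0.92), and *Rrp1* (0.92). The nearest to *Msr1* were *Cndp2*, *Gm6377*, and *Gosr1* (each 0.94), and to *Colec12* *Prrc2c* (0.94), *Sgms1* (0.90), and *Slc1a5* (0.89). *Cd5l* was most like *Saa3* (0.90), an acute-phase protein, *Kdm6b* (0.89), a histone demethylase, and *Pf4* (0.89), a chemokine. For *Scarb1* they were *Nsdhl* (0.87), an enzyme of cholesterol synthesis, *Idh3b* (0.86), and *Med29* (0.85), and for *Marco* *Smpdl3b* (0.92), *Rest* (0.89), and *Arhgef37* (0.89). For *Cd163* and *Olr1*, which were near background, the highest values were 0.77 (*Ecpas*, *Gm15455*, *Thoc2l*) and 0.83 (*Zfp87*, followed by *Sphk2* at 0.81 and *Mbd1* at 0.79).

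Of 17 further scavenger receptor genes, 15 were measured and 7 of them lay below background in all groups. With TCM in WT cells 0 were called (2.91% of all genes). With TCM in *Camkk2*-/- cells, 2 fell and 0 rose, *Mrc1*, the mannose receptor (log2 fold change −0.92, adjusted p = 0.0185), and *Lrp1*, an endocytic receptor of the lipoprotein receptor family (−0.61, adjusted p = 0.00566). In TCM both were also lower in the *Camkk2*-/- group than in WT, *Mrc1* by a log2 fold change of −1.10 (adjusted p = 0.0117) and *Lrp1* by −0.69 (adjusted p = 0.00518). In RM 0 were called between genotypes (0.738% of all genes). Over all genes, 11.5% were called with TCM in *Camkk2*-/- cells and 4.49% between genotypes in TCM. *Cxcl16*, a membrane chemokine that binds oxidized lipoprotein, and *Scarb2*, a lysosomal relative of CD36, had adjusted p-values of 0.105 and 0.135 or more. The list's median log2 fold change was 0.18 in *Camkk2*-/- cells with TCM, beside 0.01 over all genes. At an unadjusted p under 0.05 there were 2 of the 15 genes with TCM in WT cells (14.2% of all genes) and 7 with TCM in *Camkk2*-/- cells (24%). Between genotypes there were 3 in RM (8.21%) and 4 in TCM (15.3%). Of the 7 with TCM in *Camkk2*-/- cells, only *Mrc1* and *Lrp1* fell. The others had higher means in TCM, among them *Cxcl16* (log2 fold change 0.47) and *Scarb2* (0.39).

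Among genes that handle the lipoprotein cargo, 12 of 15 were measured. With TCM 3 rose in *Camkk2*-/- cells, *Npc2* (log2 fold change 1.00), which carries cholesterol out of lysosomes, and the fatty acid-binding proteins *Fabp5* (1.28) and *Fabp4* (1.36). A further 3 fell, the lysosomal lipase *Lipa* (−0.94), lipoprotein lipase *Lpl* (−0.91), and the efflux pump *Abca1* (−0.84). In WT cells with TCM 2 rose, *Fabp5* (0.78) and *Fabp4* (1.42). *Apoe*, a ligand of lipoprotein receptors, was 18.72, 18.59, 18.82, and 19.15 in WT RM-BMDM and 16.71, 17.77, 18.24, and 17.25 in *Camkk2*-/- RM-BMDM, and 18.62, 18.75, 19.09, and 19.01 against 16.22, 16.90, 17.55, and 16.74 in TCM. It was lower in *Camkk2*-/- arrays without overlap in both media, by a log2 fold change of −1.33 in RM (adjusted p = 0.0226) and −2.01 in TCM (adjusted p = 0.000194). *Fabp5* was lower in RM as well (−0.98), and in TCM *Lipa* (−0.66) and *Lpl* (−0.70) were lower and *Npc2* (0.66) higher in *Camkk2*-/- cells. The list's median was 0.02 with TCM in *Camkk2*-/- cells and −0.37 between genotypes in TCM, beside 0.01 and −0.02 over all genes. Of all genes, 2.91% (WT) and 11.5% (*Camkk2*-/-) were called with TCM, and 0.738% (RM) and 4.49% (TCM) between genotypes.

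Hemoglobin and heme handling, the cargo side of CD163, was measured with 9 of 9 genes. *Hp*, which encodes haptoglobin, rose with TCM by 3.78 in WT (adjusted p = 4.87e-05) and by 2.80 in *Camkk2*-/- cells (adjusted p = 0.000144), and was 2.11 higher in *Camkk2*-/- RM-BMDM (adjusted p = 0.0197). Another 3 genes fell with TCM in *Camkk2*-/- cells, the heme transporter *Slc48a1* (log2 fold change −1.44), the iron exporter *Slc40a1* (−1.15), and the biliverdin reductase *Blvrb* (−0.91), and in TCM *Slc40a1* was lower in *Camkk2*-/- cells than in WT (−1.08, adjusted p = 0.0221). The list's median was −0.09 with TCM in WT and −0.21 in *Camkk2*-/- cells, beside 0.04 and 0.01. The shares of all genes called were 2.91% (WT) and 11.5% (*Camkk2*-/-) with TCM, and 0.738% (RM) and 4.49% (TCM) between genotypes.

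Of 15 ligands and partners of the receptors, 14 were measured. *Thbs1*, the CD36 ligand thrombospondin-1, was 12.94, 12.66, 13.21, and 13.23 in WT RM-BMDM and 15.87, 16.18, 14.57, and 15.29 in WT TCM-BMDM, a rise of 2.47 (adjusted p = 0.000417). The rise in *Camkk2*-/- cells was 3.09 (adjusted p = 5.53e-06), and the 2 media did not overlap in either genotype. *Tlr4* (log2 fold change 0.83), a toll-like receptor that can pair with CD36, and *Vav1* (0.67), a signaling protein, also rose in *Camkk2*-/- cells. *Gas6* (−1.52) and *Mfge8* (−0.82), bridging proteins that tie dying cells to phagocytes, fell, and in TCM both were lower in *Camkk2*-/- cells than in WT (−1.72, adjusted p = 0.000254, and −1.38, adjusted p = 0.000663). The list's median was −0.03 with TCM in *Camkk2*-/- cells and 0.15 in WT, beside 0.01 and 0.04. Calls over all genes were 2.91% (WT) and 11.5% (*Camkk2*-/-) with TCM, and 4.49% between genotypes in TCM.

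Of 11 transcription factors that act on scavenger receptor genes, 8 were measured. With TCM in WT cells 2 rose, *Maf* (log2 fold change 0.82, adjusted p = 0.0452) and *Cebpb* (0.76, adjusted p = 0.0124), and in *Camkk2*-/- cells *Maf* alone (0.92, adjusted p = 0.00692). *Nfe2l2* and *Klf4* had adjusted p-values of 0.0819 and 0.177 or more. Over all genes, 2.91% were called with TCM in WT and 11.5% in *Camkk2*-/- cells. Between genotypes 0 of the list were called by limma (0.738% of all genes in RM and 4.49% in TCM). In each medium 2 had an unadjusted p under 0.05 (8.21% and 15.3% of all genes). The list's median was 0.15 with TCM in WT and 0.04 in *Camkk2*-/- cells, beside 0.04 and 0.01. The plot of the related lists gives all of these genes. *Fabp4*, *Lpl*, *Abca1*, and *Vav1* were named after their values were seen.

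**Figure D4:**
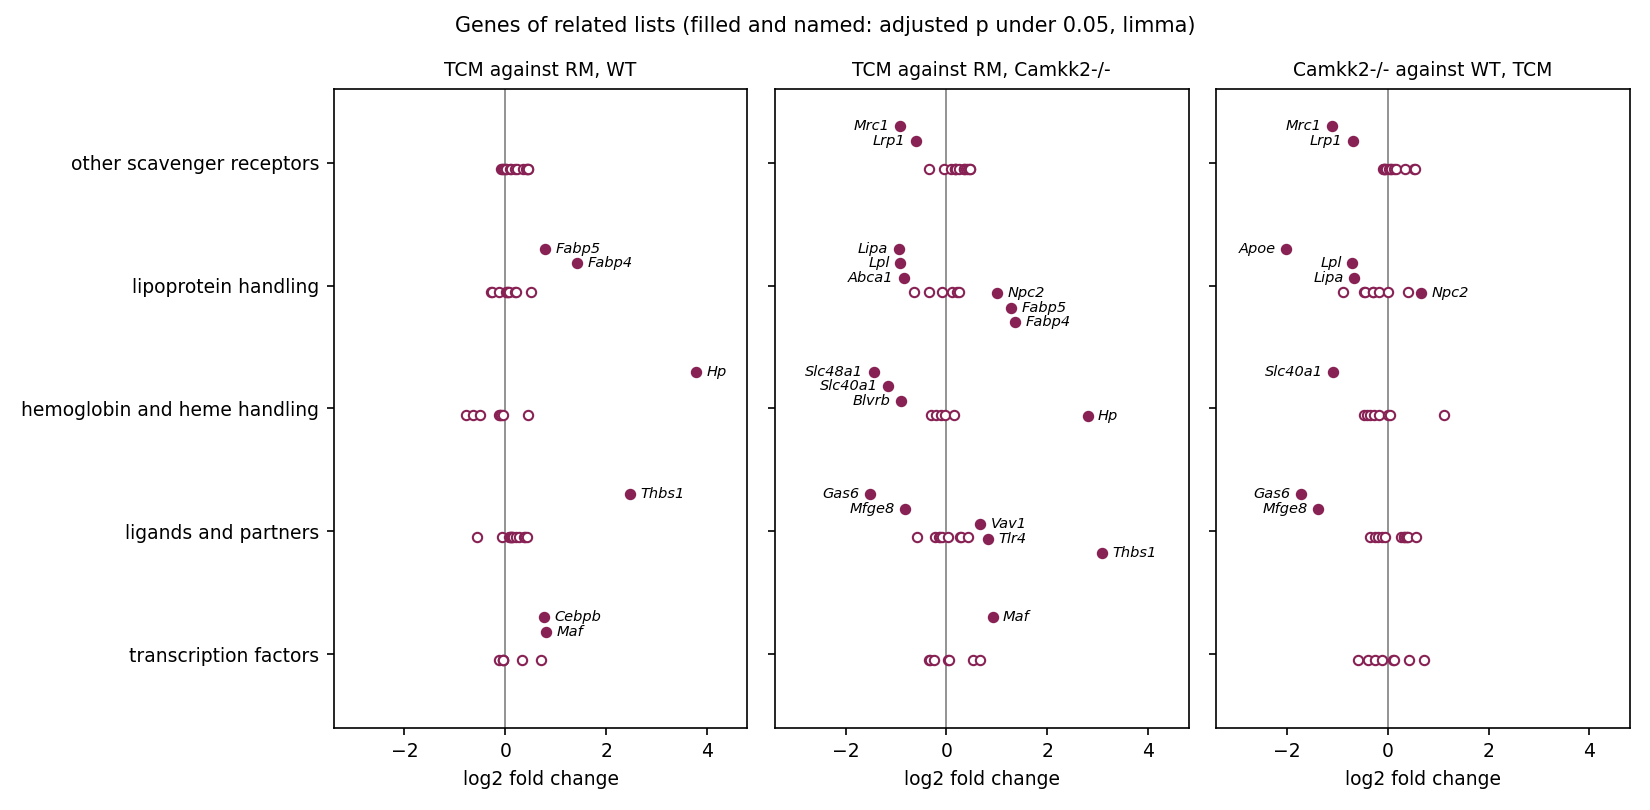
Log2 fold change (horizontal axis) of the genes of 5 related lists (rows) in 3 comparisons (panels), with genes of an adjusted p under 0.05 filled and named and offset vertically for legibility. *Hp* and *Thbs1* stand at the right with TCM in both genotypes, and *Apoe* at −2.01 is the lowest in the comparison of genotypes in TCM.

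Some markers of neutrophils, inflammatory monocytes, and dendritic cells moved with medium. Between genotypes, at most 1 marker of each of these lists was called in either medium, beside 0.738% of all genes in RM and 4.49% in TCM. At an unadjusted p under 0.05 in RM there were 1 of 10 neutrophil, 3 of 5 monocyte, and 1 of 6 dendritic cell markers (8.21% of all genes). In TCM there were 5, 3, and 3 (15.3%). Of 10 neutrophil markers measured, 6 rose with TCM in each genotype, beside 2.21% of all genes in WT and 6.13% in *Camkk2*-/- cells. The mean signal of the 10 ran from 8.05 to 9.09 in WT RM, 8.40 to 9.49 in *Camkk2*-/- RM, 9.49 to 10.66 in WT TCM, and 10.29 to 11.59 in *Camkk2*-/- TCM arrays. Between genotypes 1 of them, *Cxcr2*, was higher in *Camkk2*-/- cells in TCM (log2 fold change 0.94, adjusted p = 0.03), beside 2.7% of all genes. Of 10 genes stimulated by type I interferon, which are not cell type markers, 9 rose with TCM in WT (2.21% of all genes) and 10 in *Camkk2*-/- cells (6.13%). In TCM, 5 of them were higher in *Camkk2*-/- than in WT cells (2.7%). Their mean signals were 10.93 to 12.53, 11.58 to 12.81, 12.60 to 14.18, and 14.86 to 15.41 in the same order of groups.

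Of 5 inflammatory monocyte markers, 3 rose with TCM in WT (2.91% of all genes called), and in *Camkk2*-/- cells 2 rose and 1 fell (11.5%). The mean signals of the list were 10.26 to 11.67, 11.48 to 12.71, 12.16 to 13.77, and 13.84 to 14.45 in the same order of groups. *Ly6c2* rose with TCM in WT (log2 fold change 3.95) and in *Camkk2*-/- cells (4.27). *Plac8* rose in both genotypes and was higher in *Camkk2*-/- than in WT cells in TCM (3.41, adjusted p = 4.19e-05). The marker that fell was *Fn1*, which encodes fibronectin, with group means of 9.54 in WT RM, 12.24 in *Camkk2*-/- RM, 10.45 in WT TCM, and 9.85 in *Camkk2*-/- TCM. As with *Cd36*, *Stab1*, and *Colec12*, its highest mean was in *Camkk2*-/- RM-BMDM. The other markers of the list did not share this: *Ly6c2*, *Ccr2*, and *Plac8* were highest in *Camkk2*-/- TCM-BMDM and *F13a1* in WT TCM-BMDM. *Fn1* was 2.70 higher in *Camkk2*-/- than in WT cells in RM (adjusted p = 0.000668), its log2 fold change with TCM in *Camkk2*-/- cells was −2.39 (adjusted p = 0.000265), and the difference of genotype effects was −3.30 (adjusted p = 0.0188).

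Among 6 dendritic cell markers, 3 rose and 1 fell with TCM in *Camkk2*-/- cells (11.5% of all genes called). *Itgax*, which encodes the integrin CD11c and is also expressed by macrophages, had group means of 10.58 in WT RM, 11.39 in *Camkk2*-/- RM, 10.19 in WT TCM, and 8.72 in *Camkk2*-/- TCM. *Cd36* and *Stab1* had the same order of groups, and so did the macrophage markers *Adgre1*, *Csf1r*, and *Itgam*, but not *Fcgr1*, *Mertk*, and *Spi1*. For *Itgax* the log2 fold change with TCM in *Camkk2*-/- cells was −2.66 (adjusted p = 2.65e-06), that between genotypes in TCM −1.47 (adjusted p = 0.00476), and the difference of genotype effects −2.28 (adjusted p = 0.0255). *Ccr7* rose by 0.94 (adjusted p = 0.00185). *Flt3* and *Zbtb46*, which also rose, are among the 4 markers of this list below background in all groups, and the mean signal of the list was 6.14 to 6.34, 6.19 to 6.60, 6.22 to 6.45, and 6.31 to 6.47. Of 5 lymphoid and erythroid markers, 4 were below background in all groups, and 0 were called in any comparison.

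Of 6 macrophage markers, *Fcgr1* rose with TCM in WT (1.22, adjusted p = 0.0011) and in *Camkk2*-/- cells (1.53, adjusted p = 1.74e-05). Another 3, *Adgre1* (log2 fold change −1.15), *Csf1r* (−0.81), and *Itgam* (−0.54), fell with TCM in *Camkk2*-/- cells, where 11.5% of all genes were called. *Adgre1* was lower in *Camkk2*-/- than in WT cells in TCM (−0.58, adjusted p = 0.0292). These 3 genes had the same order of group means as *Cd36*, *Stab1*, and *Itgax*. Means were highest in *Camkk2*-/- RM-BMDM and lowest in *Camkk2*-/- TCM-BMDM (*Adgre1* 16.32 and 15.17, *Csf1r* 17.40 and 16.59, *Itgam* 16.77 and 16.23). The part of these cells and signals in the differences of *Cd5l*, *Msr1*, *Cd36*, *Stab1*, and *Colec12* between media and between genotypes was not tested.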

How the data were processed

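RNA of WT and *Camkk2*-/- BMDM in RM or TCM was measured on 16 Affymetrix arrays. The values deposited by the authors are log2 signals, made with Affymetrix Expression Console according to the processing notes of the submitters. Summarization, normalization, and genome build are steps not given in the sources used here. If arrays were set to a common level, shifts common to all genes are not visible. Of 28846 probe sets, 6640 controls and 2634 without a gene symbol in the probe annotation were left out. The probe set of highest mean was kept for 55 genes with several, so that 19505 genes entered the tests, dim ones included.

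A linear model of the 4 groups, with no covariates, was fitted to the 16 arrays with limma 3.58.1 (lmFit, contrasts.fit, eBayes, two-sided) in R 4.3.3. Benjamini-Hochberg adjustment covered all genes tested, and calls were made at an adjusted p under 0.05. The p-values measure the spread between these replicates. The code was tested on simulated arrays. The members and gene lists were chosen with earlier results of these data known. Named genes were the members, *Camkk2*, up to 4 genes of each related list with the smallest adjusted p over the 5 comparisons, the 3 genes most like each member, and marker genes beside a result. Alternatives were fits without each array, to 8 arrays, with trend or robust variance or array weights, repeated quantile normalization, median centering, a filter on the 40% dimmest genes, other handling of probe sets, other thresholds, and the replicate number as a block. Signal over background and the number of arrays limit precision. List genes without a probe set of their symbol were not analyzed here.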

Additional observations from a re-analysis of the deposited data

Results flagged for a closer look

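In 36 sets of 4 arrays (9 genes in 4 groups), the highest or lowest array was checked for a gap to the others that is large for the range of its group, and 2 sets passed Dixon's limit. About 1 in 20 such sets passes by chance. For *Stab1*, WT TCM replicate 3 had a signal of 10.00, against 9.15 to 9.24 in the other 3 arrays. It is also the array that deviated most from its group mean over all genes (SD 0.355). For *Cd163*, WT RM replicate 2 had a signal of 4.88, against 4.19 to 4.29 in the other 3 arrays, all below the background median of 5.37.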

How the results depend on the processing

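Calls of members kept to the same number under most alternatives. With TCM in WT cells, 2 members were called in every setting but the fit to 8 arrays, with 1 (*Msr1* lost), and 2 without each array. In *Camkk2*-/- cells the 5 calls became 3 when a natural-log fold change over 0.5 was required (*Msr1* and *Cd5l* lost), 6 with array weights, and 4 to 5 without each array. The call of *Cd5l* there also failed in the fit to 8 arrays (adjusted p = 0.0526). Between genotypes in RM, 1 call became 2, with *Colec12*, in the fit to 8 arrays, without WT TCM replicate 1 (1 to 2 over all arrays left out), and with 14 arrays after leaving out both WT TCM replicates 1 and 3. That setting, and a factor for replicates 1 and 2 against 3 and 4, were chosen after seeing the data. In TCM, 0 members were called in every setting run. For the difference of genotype effects the count became 1 with a variance trend (*Cd5l*).

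Directions changed only for differences that passed no test. With array weights, *Olr1* was −0.011 in RM, −0.000605 in TCM, and 0.011 for the difference of genotype effects. With 14 arrays, *Olr1* in TCM was −0.043 and the *Scarb1* difference of genotype effects 0.13. With quantile normalization *Cd5l* between genotypes in TCM was −0.030. Over arrays left out in turn, log2 fold changes ran from −0.36 to 0.17 for *Scarb1* with TCM in WT and from −0.10 to 0.31 for *Olr1* with TCM in *Camkk2*-/- cells. Between genotypes they ran in RM from −0.030 to 0.30 (*Cd163*) and −0.16 to 0.25 (*Olr1*), and in TCM from −0.14 to 0.13 (*Olr1*), −0.090 to 0.095 (*Cd5l*), and −0.074 to 0.42 (*Colec12*). For the difference of genotype effects they ran from −0.15 to 0.065 (*Msr1*), −0.16 to 0.30 (*Marco*), −0.15 to 0.18 (*Cd163*), and −0.24 to 0.17 (*Olr1*). Over all genes, 567 calls with TCM in WT became 353 in the fit to 8 arrays and 328 to 666 without each array (328 without WT TCM replicate 2, 375 without replicate 4). Calls between genotypes went from 144 to 95 in RM without *Camkk2*-/- RM replicate 2, and from 876 to 554 in TCM without *Camkk2*-/- TCM replicate 3 and 362 with 14 arrays. For the difference of genotype effects, 28 became 10 to 51 without each array and 4 with 14 arrays. At an adjusted p under 0.01 the 5 counts were 258, 1279, 80, 432, and 7. The filter on the 40% dimmest genes dropped 1 member, *Cd163*. The cause of these changes was not tested.

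Arrays of a number were not treated as pairs, since their deviations did not correlate above 0.1 in every pair of any comparison, and whether they are pairs was not settled. The correlation was −0.15 to 0.23 and was over 0.1 in 3 of 4 pairs with TCM against RM in WT, where 3 of 4 arrays were most like their own number. It was over 0.1 in 2 pairs in *Camkk2*-/- cells, and in 3 and 0 pairs between genotypes in RM and in TCM. With the replicate number as a block, 2, 5, 1, 0, and 0 members were called, as without it. That block joins the arrays of a number over both genotypes, which came from different mice. It therefore cannot show whether calls would hold if marrow was shared between the media within a genotype. *Cd163* and *Olr1* lay at or near background, and for *Marco* the signal limits the precision.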
